A study of Mus musculus with 2 samples.

Results

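Growth factor and cytokine receptor genes were examined in the liver of normal and diabetic mice. The list named 10 receptors, Egfr, Erbb2, Erbb3, Met, Fgfr4, Lifr, Il6st, Il6ra, Il1r1 and Ntrk2, and its genes were chosen by name with their values in these same libraries already known. Of the 10 genes, 7 were among the 8551 genes of the deposited table, and Erbb2, Erbb3 and Il6ra were not listed there and were not analysed here. Because the list was drawn up from this comparison, all values below are a description, and no test was made on them.

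The normal library came from male wild type mice and the diabetic library from male db/db mice, which carry a defective leptin receptor in all cells and become obese and diabetic. Both groups are labelled as C57BL/6 in background and adult at 9 weeks, were fed chow and were killed about 3 h after the beginning of the light cycle. There was 1 library per group, and whether the RNA of several mice was pooled is not given in the sources used here, so no difference had a replicate check. The methods name 2 animal suppliers without assigning them to the groups.

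Growth factor receptors such as Egfr, Met and Fgfr4 are tyrosine kinases, which phosphorylate themselves after binding a ligand and pass the signal to Ras-MAPK and PI3K-Akt. In liver they are best known for regeneration after tissue loss and, for Fgfr4, for the control of bile acid synthesis. Lifr, Il6st and Il6ra have no kinase of their own and signal through Jak kinases and Stat3, which drive the acute-phase response of hepatocytes. The leptin receptor mutated in db/db mice belongs to the same family as Il6st.

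The assay counted short tags next to a DpnII site rather than whole transcripts. To show what such a tag looks like, the 21 bases at the DpnII site nearest to the 3′ end were read from the GENCODE M21 transcript of each listed receptor, with the recognition site in capitals. These are the tags that the annotation gives for the longest principal transcript, and the authors' own tags were not used here.
Egfr, transcript Egfr-201, chr11:16917854-16917874 of GRCm38, plus strand: GATCtctcttacatactgttg
Met, transcript Met-203, chr6:17573659-17573679 of GRCm38, plus strand: GATCtgctctgtagaaagaat
Fgfr4, transcript Fgfr4-201, chr13:55168420-55168440 of GRCm38, plus strand: GATCatggccttgcccttgga
Lifr, transcript Lifr-203, chr15:7197026-7197046 of GRCm38, plus strand: GATCggttatgatgtgcaata
Il6st, transcript Il6st-203, chr13:112509789-112509809 of GRCm38, plus strand: GATCacacctacaacctagtc
Il1r1, transcript Il1r1-201, chr1:40317175-40317195 of GRCm38, plus strand: GATCtaacactgttaacacgt
Ntrk2, transcript Ntrk2-201, chr13:59132823-59132843 of GRCm38, plus strand: GATCgttaagccaatagtagt
All 7 of these tags lay in the 3′ UTR, and none occurred at a DpnII site in a transcript of another gene. For 6 of the 7 receptors, transcripts with other ends gave other tags, 23 distinct tags over 28 protein-coding transcripts in all, of which 0 were found in another gene. Egfr, Lifr and Ntrk2 have shortened forms, which lack the part of the receptor inside the cell that carries the signal, and the last tag of 1 such transcript is shown for each.
Egfr, transcript Egfr-202, chr11:16887222-16887242 of GRCm38, plus strand: GATCtaagaccagaagccatc
Lifr, transcript Lifr-202, across an exon junction: GATCagtttcagccaggagta
Ntrk2, transcript Ntrk2-202, chr13:58936204-58936224 of GRCm38, plus strand: GATCctgtagctcagcagacc
The Egfr transcripts encode 1210 and 655 residues, the Lifr transcripts 1092 and 719, and the Ntrk2 transcripts 821 and 476. Il6st also has shorter transcripts with other tags, not shown here, among them Il6st-209 with 327 residues against 917 for Il6st-203. The deposited table gives 1 value per gene, so full and shortened forms cannot be told apart in the values that follow.

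The deposited values, called TPM by the authors, are tags of a gene per 1000000 clean tags, and 1 read was worth 0.0973 TPM in normal liver and 0.0740 TPM in diabetic liver. From these steps the libraries held 10278531 and 13508232 clean tags. Counts of reads given below were computed from these steps, and 95% intervals cover counting error only. The intervals are exact, except for changes of a pair of genes between the libraries, where they are a normal approximation. With 0 reads counted, a level of up to 3 reads remains possible, or 0.292 TPM for normal and 0.222 TPM for diabetic liver. The median log2 ratio of diabetic over normal was 0.25 over all listed genes, and 4 other scalings between the libraries lowered each log2 ratio by 0.25 to 0.31. For that reason receptor ratios are also given under scaling by the trimmed mean of M values (TMM), which sets the typical gene near 0.

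In the diabetic library the 3 receptors with the most tags in normal liver, Il1r1, Lifr and Egfr, were lower, Met and Ntrk2 were higher, and Fgfr4 and Il6st were close to equal. At least 1.5-fold lower were 3 of the 7 listed receptors, beside 15.3% of all listed genes, and at least 1.5-fold higher were 2 of the 7, beside 34.4% of all listed genes. Under TMM scaling, 23.6% of all listed genes were at least 1.5-fold lower and 24.0% at least 1.5-fold higher, and 3 and 1 of the 7 receptors were. These shares are given as background only, since the same contrast was known when the receptors were chosen. The median log2 ratio of the 7 receptors was -0.09. Added together, the receptors were at 521 TPM in normal liver and at 207 TPM in diabetic liver. Il1r1, Lifr and Egfr held 92.5% of that sum in normal liver and 75.5% in diabetic liver.

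**Figure D1:**
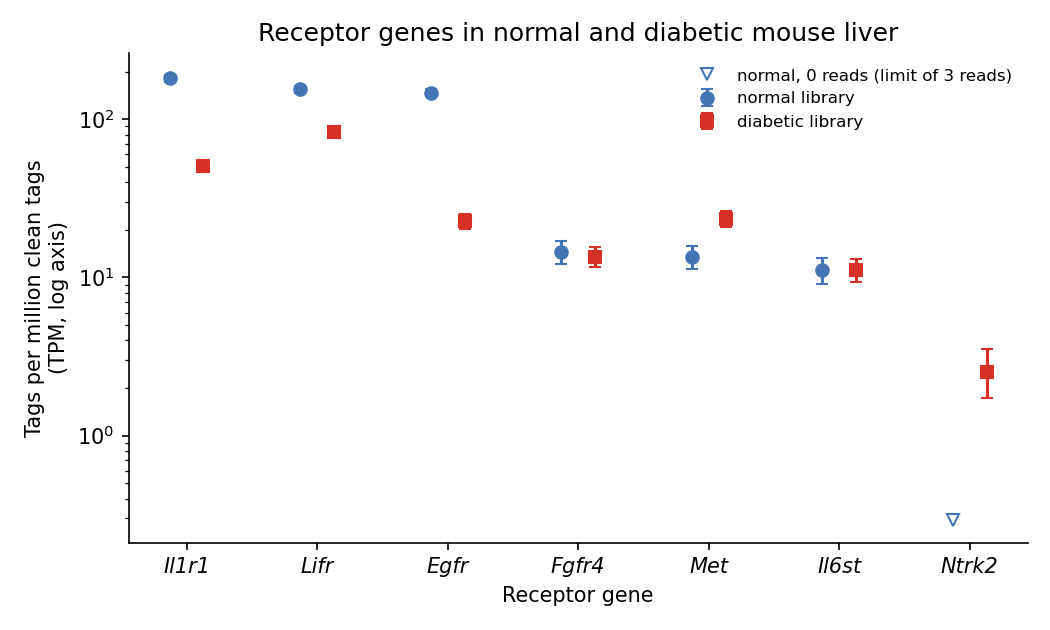
Level of each listed receptor gene (TPM, log axis) in normal liver (circles) and the diabetic library (squares), with exact 95% counting intervals and 1 library per group. Il1r1, Lifr and Egfr sit lower in diabetic liver, Met sits higher, Fgfr4 and Il6st overlap, and Ntrk2 had 0 reads in normal liver, drawn at the limit of 3 reads (triangle).

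Egfr (Entrez 13649), the receptor for epidermal growth factor and TGF-alpha, was at 147 TPM in normal liver with 1507 reads and at 22.6 TPM in diabetic liver with 306 reads. It was 6.47-fold lower in diabetic liver (95% interval, 5.72 to 7.34), a log2 ratio of -2.69. A lower ratio was found for 56 of the 8551 listed genes. Under TMM scaling its log2 ratio was -2.95. By level, 394 listed genes lay above Egfr in normal liver and 2244 in diabetic liver.

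Met (Entrez 17295), the receptor for hepatocyte growth factor, was at 13.4 TPM in normal liver with 138 reads and at 23.5 TPM in diabetic liver with 317 reads. It differed in the opposite direction to Egfr, with a 1.75-fold higher value in diabetic liver (95% interval, 1.43 to 2.15) and a log2 ratio of 0.81. Under TMM scaling the ratio was 1.47-fold, which is below 1.5-fold. The 2 receptors were therefore nearly equal in tags in diabetic liver, and there the ratio of their reads, Met over Egfr, had a 95% interval of 0.88 to 1.22. In the normal library Egfr had 10.9 times the reads of Met, against 0.97 times in diabetic liver, a difference that no scaling between the libraries can alter, in a pair compared after the values were seen.

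Fgfr4 (Entrez 14186), the main fibroblast growth factor receptor of hepatocytes, was at 14.4 TPM with 148 reads in normal liver and at 13.6 TPM with 183 reads in diabetic liver. Its log2 ratio was -0.09 with the deposited values. There the 95% interval of -0.41 to 0.23 allows a difference in either direction of less than 1.5-fold. Under TMM scaling the log2 ratio was -0.34. The interval moves down by the same shift, so its lower end then lies past 1.5-fold lower. The co-receptor of Fgfr4, Klb (Entrez 83379), needed for the endocrine fibroblast growth factors, was at 2.04 TPM and 2.89 TPM in the same order. Its log2 ratio was 0.50, with a wide interval of -0.30 to 1.34 from 21 and 39 reads.

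Ntrk2 (Entrez 18212), the receptor for brain-derived neurotrophic factor, had 0 reads in normal liver and 34 reads in diabetic liver, where it was at 2.52 TPM. Set against the floor of 3 reads in normal liver, it was 8.63-fold higher in diabetic liver with the deposited values. Under TMM scaling it was 7.25-fold higher against the same floor. The floor leaves out the counting error of the diabetic reads, and the exact 95% interval from 0 and 34 reads reaches down to 6.64-fold. With the floor of 3 reads, 94 of the listed genes had a ratio above that of Ntrk2. This is the rank of a bound, since every gene at 0 reads was set to the floor in the same way. Ntrk2 entered the deposited table, whose lowest mean over both libraries was 1.005 TPM, through its diabetic value alone. It had the fewest tags of the 7 receptors in both libraries.

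Lifr (Entrez 16880), the receptor chain for leukemia inhibitory factor, was at 154 TPM in normal liver with 1585 reads and at 83.4 TPM in diabetic liver with 1126 reads. It was 1.85-fold lower in diabetic liver (95% interval, 1.71 to 2.00), a log2 ratio of -0.89. Under TMM scaling its log2 ratio was -1.14. Despite the lower value, Lifr had the most tags of the 7 receptors in diabetic liver.

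Il6st (Entrez 16195), the signalling chain that Lifr, Il6ra and other receptors of the family share, was at 11.09 TPM in normal liver with 114 reads and at 11.10 TPM in diabetic liver with 150 reads. The log2 ratio was 0.00 (95% interval, -0.36 to 0.37), or -0.25 under TMM scaling. Lifr and its partner thus differed in their ratios. The reads of Lifr were 13.9 times those of Il6st in normal liver and 7.51 times in diabetic liver, a log2 change of -0.89 (95% interval, -1.26 to -0.52), again in a pair compared after the values were seen.

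Il1r1 (Entrez 16177), the signalling receptor for interleukin-1, had the most tags of the 7 receptors in normal liver, with 181 TPM and 1861 reads. In the diabetic library it was at 50.4 TPM with 681 reads. It was 3.59-fold lower (95% interval, 3.29 to 3.93), a log2 ratio of -1.84, and 142 listed genes had a lower ratio. Under TMM scaling its log2 ratio was -2.10. Listed Kupffer cell markers, described with the other markers at the end, summed to 351 and 206 TPM, with C1qa alone at 176 and 50.7 TPM. The part of these markers in the Il1r1 values was not tested. Its accessory chain Il1rap (Entrez 16180), without which the receptor does not signal, was at 95.8 TPM and 110 TPM in normal and diabetic liver, a log2 ratio of 0.20 (95% interval, 0.08 to 0.32). Il1r1 had 1.89 times the reads of Il1rap in normal liver and 0.458 times in diabetic liver. This is a log2 change of -2.04 (95% interval, -2.22 to -1.87), in a pair compared after the values were seen.

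**Figure D2:**
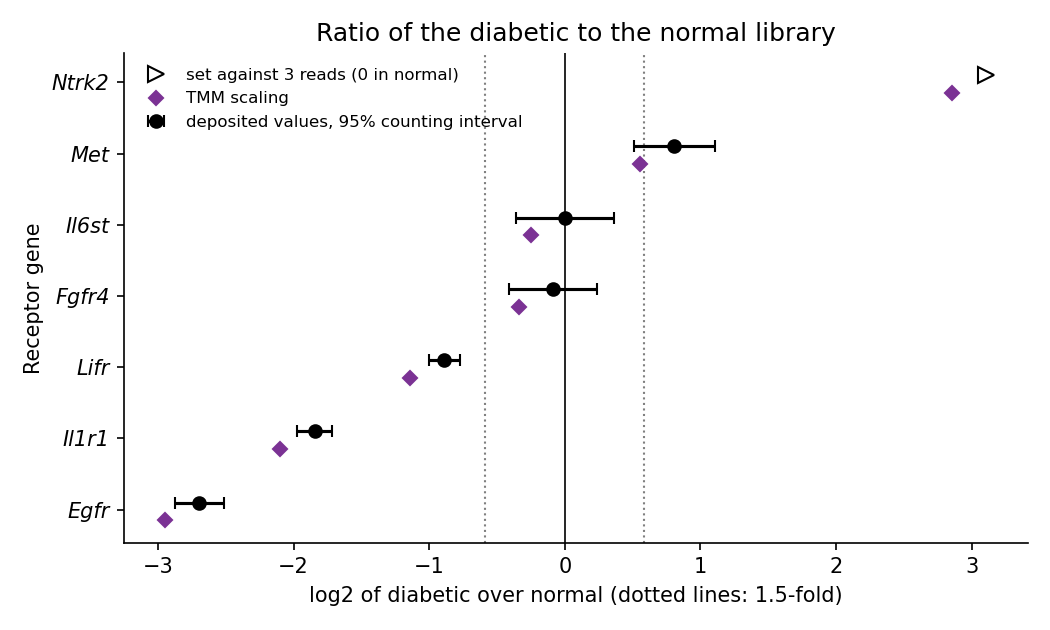
log2 ratio of the diabetic to the normal library for the 7 listed receptor genes, from the deposited values with exact 95% counting intervals (circles) and under TMM scaling (diamonds), with dotted lines at 1.5-fold. Egfr, Il1r1 and Lifr lie below the lower line under both, Met lies above the upper line only with the deposited values, and both values of Ntrk2 are set against 3 reads in normal liver (open triangle for the deposited values).

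The order of the receptors by tags differed between the libraries. In the normal library it was Il1r1, Lifr, Egfr, Fgfr4, Met, Il6st and Ntrk2, and in diabetic liver it was Lifr, Il1r1, Met, Egfr, Fgfr4, Il6st and Ntrk2. This is an order of TPM values, which depends on the DpnII sites of each gene and is not scaled by length. Of the neighbours, Lifr and Egfr, Fgfr4 and Met, and Met and Il6st did not differ beyond counting error in normal liver. The same held for Met and Egfr and for Fgfr4 and Il6st in diabetic liver.

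**Figure D3:**
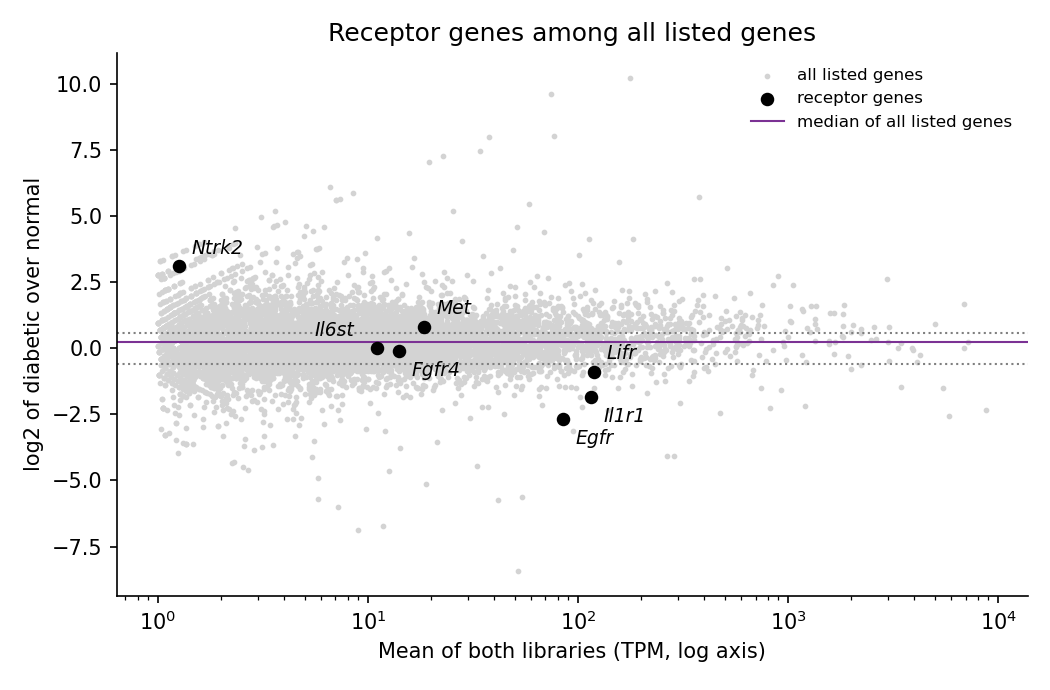
log2 ratio of diabetic over normal against the mean of both libraries (TPM, log axis) for all 8551 listed genes (grey) and the 7 receptors (black), with the median of all listed genes (solid line, 0.25) and 1.5-fold (dotted lines). Egfr and Il1r1 lie below most genes with similar means, and Ntrk2 lies at the low end of the means.

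The promoters of the 3 lower receptors are shown as sequences, and whether they bear on the lower values was not tested. Each window runs from 250 bases before to 50 bases after a RefSeq start. Capitals mark the GC box GGGCGG on either strand, a motif bound by Sp1-type factors. Il1r1 and Lifr have 2 windows in RefSeq, of which the one with more CG dinucleotides is printed. For both genes the window left out has 0 GC boxes, and which start liver uses was not examined.
Egfr promoter, chr11:16751953-16752252 of GRCm38.p6, plus strand: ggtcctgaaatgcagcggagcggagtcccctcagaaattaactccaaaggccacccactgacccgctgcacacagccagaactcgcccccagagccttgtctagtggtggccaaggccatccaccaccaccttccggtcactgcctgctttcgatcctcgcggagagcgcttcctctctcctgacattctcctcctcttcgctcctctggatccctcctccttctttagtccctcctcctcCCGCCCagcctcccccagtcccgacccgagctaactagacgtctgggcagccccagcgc
Il1r1 promoter, chr1:40266336-40266635 of GRCm38.p6, plus strand: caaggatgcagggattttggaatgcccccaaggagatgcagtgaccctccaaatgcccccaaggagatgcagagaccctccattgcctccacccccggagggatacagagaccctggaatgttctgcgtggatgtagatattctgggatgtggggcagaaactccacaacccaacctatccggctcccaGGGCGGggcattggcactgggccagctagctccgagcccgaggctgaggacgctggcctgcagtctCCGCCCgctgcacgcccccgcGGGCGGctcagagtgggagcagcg
Lifr promoter, chr15:7129322-7129621 of GRCm38.p6, plus strand: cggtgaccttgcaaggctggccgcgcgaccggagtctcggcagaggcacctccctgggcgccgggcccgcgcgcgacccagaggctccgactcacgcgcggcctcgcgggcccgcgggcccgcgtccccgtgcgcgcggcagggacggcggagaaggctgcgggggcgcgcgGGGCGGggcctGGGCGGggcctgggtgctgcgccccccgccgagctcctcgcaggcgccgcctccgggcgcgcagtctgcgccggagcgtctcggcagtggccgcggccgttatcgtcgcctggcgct
The GC box was found in 7 of the 9 windows of the 7 listed receptors, against 35.7% of all 32851 windows, and each receptor had it in at least 1 window. It was therefore present at lower, equal and higher receptors. The palindrome TTCNNNGAA, which STAT dimers bind, was found in 0 of the 9 windows and in 8.30% of all windows, and TATAAA on either strand in 0 of 9 and in 13.6%. CG dinucleotides were more frequent than in the median window, which has 7, in 7 of the 9 windows. A match or its absence describes these letters only.

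The counts of the lists that follow stand beside 15.3% lower and 34.4% higher of all listed genes, or 23.6% and 24.0% under TMM scaling. A gene below the lowest listed mean of 1.005 TPM in 1 library was listed only through the other library. Such listings favour large differences, in these counts and in those shares. Receptors related to the 7 were mostly near equal. Of 26 such genes, 8 were listed, 0 were at least 1.5-fold lower and 1, Osmr, the oncostatin M receptor, was at least 1.5-fold higher, with 16 and 34 reads. Under TMM scaling 1, Fgfr2, was lower and 0 were higher. The insulin receptor Insr was at 36.6 and 36.7 TPM in normal and diabetic liver. The growth hormone receptor Ghr was at 165 and 172 TPM. Relative to Insr and to Ghr, the log2 change of Egfr was -2.70 (95% interval, -2.96 to -2.44) and -2.75 (-2.95 to -2.55), in pairs compared after the values were seen. The leptin receptor gene Lepr was not listed.

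Of 29 ligand genes, 6 were listed, of which 5 were at least 1.5-fold higher and 1 lower in diabetic liver, beside 34.4% and 15.3% of all listed genes. The lowest listed mean was 1.005 TPM. Nrg4 and Il1a, each at 0.78 TPM in normal liver, were listed only through their diabetic values. Il1b, at 0.81 TPM in diabetic liver, was listed only through its normal value. Such a listing favours large differences, so these counts are not a result about the ligands. Nrg4, a neuregulin of the EGF family, is not taken here as a ligand of Egfr. Nrg4 was at 0.78 TPM with 8 reads in normal liver and at 10.6 TPM with 143 reads in diabetic liver, a log2 ratio of 3.76 (95% interval, 2.75 to 5.005). Il1a and Il1b, both ligands of Il1r1, went in opposite directions on few reads. Il1a had 8 reads in normal liver and 33 in diabetic liver (log2 ratio 1.65, 95% interval 0.51 to 2.98), and Il1b had 33 and 11 reads (-1.99, -3.11 to -0.96). Ctf1, or cardiotrophin 1, a ligand of Lifr, had 13 and 57 reads, a log2 ratio of 1.74 (95% interval, 0.85 to 2.73). Fgf1, which binds all fibroblast growth factor receptors, was at 14.3 and 23.5 TPM, with a log2 ratio of 0.72 that was 0.47 under TMM scaling. Mst1, a relative of hepatocyte growth factor that binds another receptor, was at 81.0 and 127.85 TPM, with a log2 ratio of 0.66 that was 0.41 under TMM scaling. Under TMM scaling 3 ligands passed 1.5-fold upward and 1, Il1b, downward. Hgf, Egf, Il6, Lif, Bdnf and 18 other ligand genes were not listed. Of 12 genes for ligand activation and receptor shedding, 9 were listed, with 0 lower and 2 higher, and 1 and 1 under TMM scaling, and Hgfac, the protease that activates hepatocyte growth factor, was at 315 and 300.1 TPM.

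Of 22 genes of Ras-MAPK signalling inside the cell, 14 were listed, of which 0 were lower and 5 higher, beside 15.3% and 34.4% of all listed genes. The share of higher genes was thus close to that of all listed genes, and under each of the 4 scalings 3 were lower and 3 higher. The kinases Map2k1 and Map2k2 (MEK), which phosphorylate ERK, had log2 ratios of 1.05 (95% interval, 0.74 to 1.36) and 0.92 (0.52 to 1.32). Mapk3, which encodes an ERK, was at 19.5 and 37.2 TPM, a log2 ratio of 0.94 (95% interval, 0.70 to 1.18). Nras, a Ras protein, had a log2 ratio of 0.63 that was 0.37 under TMM scaling. Of 8 PI3K-Akt genes, 6 were listed, and 1 was lower and 1 higher, or 1 and 0 under TMM scaling. The lower gene was Pik3r1, the regulatory subunit of PI3K, at 13.7 and 8.44 TPM (log2 ratio -0.70, 95% interval -1.07 to -0.33).

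Of 23 JAK-STAT genes, 19 were listed, with 4 lower and 3 higher, a median log2 ratio of -0.28 and 8 lower and 1 higher under TMM scaling. Jak1, the kinase that Il6st uses, was at 26.7 TPM with 274 reads and at 12.2 TPM with 165 reads, a log2 ratio of -1.13 (95% interval, -1.41 to -0.84). Stat3, its main target, was at 49.4 and 40.7 TPM, a log2 ratio of -0.28 (95% interval, -0.46 to -0.10). Cish, a feedback inhibitor induced by STAT5, was at 18.8 TPM with 193 reads and at 3.48 TPM with 47 reads, a log2 ratio of -2.43 (95% interval, -2.92 to -1.97). Tyk2, another Jak kinase, had a log2 ratio of 0.64 that was 0.39 under TMM scaling.

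Downstream of Il1r1, 14 of 21 genes of the path from IL-1 to NF-kB were listed, with 2 lower and 7 higher, beside 15.3% and 34.4% of all listed genes, and a median log2 ratio of 0.60. Under TMM scaling 3 were lower and 5 higher, and under median-ratio scaling 3 and 4. Chuk, a kinase that releases NF-kB, was at 28.7 TPM with 295 reads and at 63.96 TPM with 864 reads, a log2 ratio of 1.16 (95% interval, 0.96 to 1.35). Irak1, a kinase recruited to the receptor, and Ikbkg, the regulatory subunit of the Chuk complex, had log2 ratios of 0.87 (95% interval, 0.34 to 1.41) and 0.75 (0.36 to 1.14). Under TMM scaling Ikbkg was at 0.50, below 1.5-fold, and Irak1 at 0.61, which median-ratio scaling lowered to 0.56, below 1.5-fold. Nfkb2, an NF-kB subunit, was lower, at 7.59 and 3.18 TPM (log2 ratio -1.26, 95% interval -1.83 to -0.70). The second lower gene was Rela, the main activating subunit, with 225 and 191 reads and a log2 ratio of -0.63.

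Of 29 genes of receptor feedback and turnover, 21 were listed, with 4 lower and 7 higher, shares close to the 15.3% and 34.4% of all listed genes. Under TMM scaling 6 were lower and 1, Stam, was higher, with 5 reads in normal liver and 40 in diabetic liver. At 0.49 TPM in normal liver, below the lowest listed mean of 1.005 TPM, Stam was listed only through its diabetic value. Errfi1, an inhibitor of Egfr that is induced by its signal, was at 502 TPM with 5164 reads and at 296 TPM with 3998 reads. Its log2 ratio was -0.76 (95% interval, -0.82 to -0.70), in the same direction as Egfr. Cblc, a ubiquitin ligase of the Cbl family that acts on Egfr, had a log2 ratio of -0.93 (95% interval, -1.22 to -0.65), and Ptprj, a receptor-type tyrosine phosphatase, one of -1.47 (-1.88 to -1.07). Epn1, an adaptor of receptor endocytosis, was at 90.2 and 159 TPM, a log2 ratio of 0.82 (95% interval, 0.70 to 0.93) that was 0.56 under TMM scaling, below 1.5-fold.

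Genes that lie at the end of these pathways differed in both directions. Of 13 immediate-early genes, 10 were listed, with 4 lower and 1 higher, or 5 and 0 under TMM scaling. The lowest listed mean was 1.005 TPM. Egr1 and Atf3, at 0.89 and 0.67 TPM in diabetic liver, were listed only through their normal values. Myc, the higher gene, at 0.78 TPM in normal liver, was listed only through its diabetic value. Such a listing favours large differences, so these counts are not a result about the immediate-early genes. Egr1, a transcription factor induced by ERK within minutes of receptor activation, had 104 reads in normal liver and 12 in diabetic liver, a log2 ratio of -3.51 (95% interval, -4.51 to -2.64). Junb, of the same class, was at 8.46 and 5.63 TPM, a log2 ratio of -0.59 (95% interval, -1.05 to -0.13).

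Of 19 acute-phase genes that Stat3 controls, 12 were listed, with 5 lower and 3 higher, or 6 and 2 under TMM scaling, and a median log2 ratio of -0.26. Lower were Saa3, a serum amyloid A, with 189 and 74 reads (log2 ratio -1.75, 95% interval -2.15 to -1.35), and the fibrinogen chain Fgg at 5079 and 1837 TPM (-1.47, -1.49 to -1.45). Higher were Hamp2, a hepcidin, at 113 and 912 TPM (log2 ratio 3.02, 95% interval 2.93 to 3.11), and Lcn2, or lipocalin 2, at 16.7 and 71.6 TPM (2.10, 1.86 to 2.34). Hamp2 and Lcn2 thus went against the fibrinogen chains within 1 list. Hamp2 has a close copy, Hamp, and how tags shared by such copies were counted is not given in the sources used here. Of 3 genes that Fgfr4 restrains or acts through in bile acid synthesis, 0 were lower and 1 was higher, and under each of the 4 scalings 1 was lower and 1 higher. Cyp7a1, the rate-limiting enzyme, had 39 reads in normal liver and 229 in diabetic liver, a log2 ratio of 2.16 (95% interval, 1.66 to 2.69). Cyp8b1, the enzyme for cholic acid, was at 120 and 177 TPM (log2 ratio 0.56, 95% interval 0.46 to 0.66). Nr0b2, a repressor of both enzyme genes, was at 60.6 and 43.7 TPM, a log2 ratio of -0.47 (95% interval, -0.64 to -0.31) that was -0.72 under TMM scaling, at least 1.5-fold lower.

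**Figure D4:**
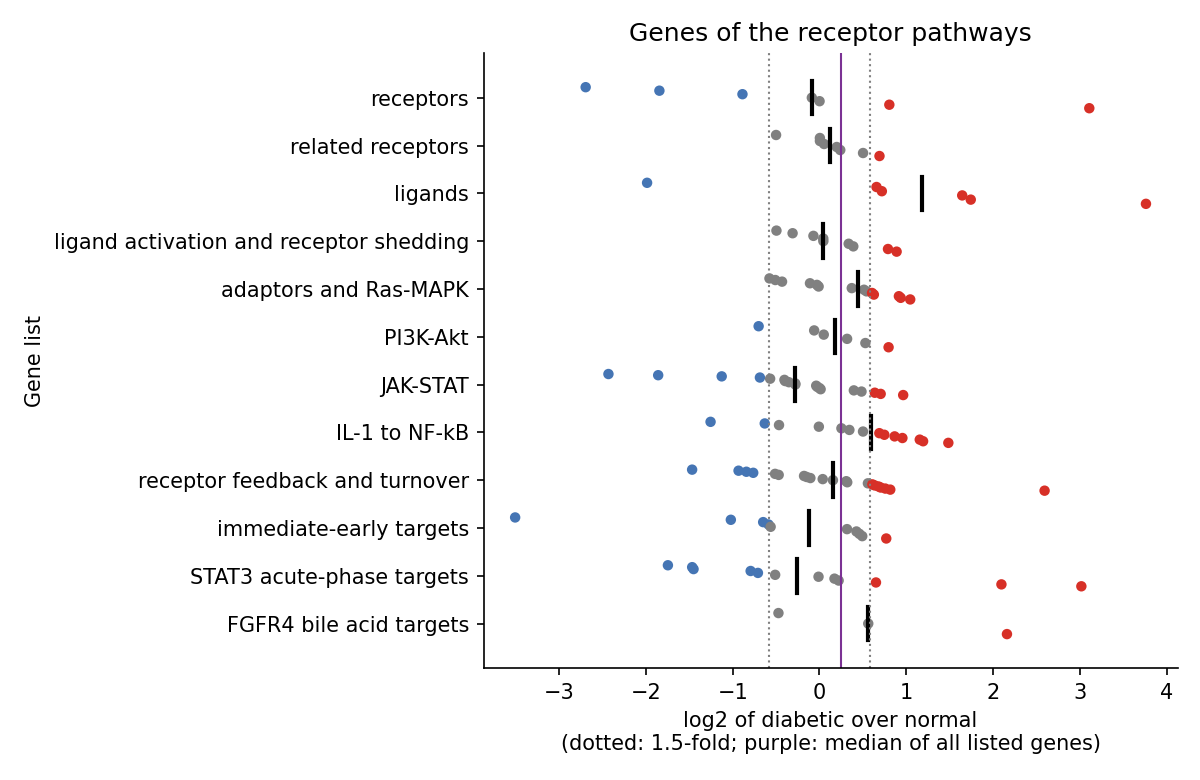
log2 ratio of diabetic over normal for each listed gene of the receptor pathways, 1 point per gene, coloured where at least 1.5-fold lower (blue) or higher (red), with the median of each list (black bar), the median of all listed genes (purple line) and 1.5-fold (dotted lines). The lists spread to both sides, with medians from -0.28 for JAK-STAT to 1.18 for the ligands.

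The libraries were checked against markers of the cells that liver tissue holds. Hepatocyte markers summed to 12304 TPM in normal liver and 12576 TPM in diabetic liver. Alb, which encodes albumin, was at 6801 and 6912 TPM, while 2 of the 10 listed markers were lower, Apob (804 and 147 TPM) and Hnf4a (96.8 and 46.2 TPM), and 3 were higher, among them Cps1 (130 and 317 TPM) and Asgr1 (199 and 380.1 TPM). The label of the list as receptors of hepatocytes could not be checked further in whole tissue, where fewer cells of a type and less RNA per cell cannot be told apart.

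Kupffer cell markers were mostly lower in diabetic liver. Of 13 given, 10 were listed, 6 were at least 1.5-fold lower and 1 higher, beside 15.3% and 34.4% of all listed genes, or 7 and 0 under TMM scaling, and their sum was 351 TPM in normal liver and 206 TPM in diabetic liver. C1qa was at 176 and 50.7 TPM, C1qc at 11.1 and 3.18 TPM, Csf1r at 21.7 and 10.1 TPM and Emr1 at 8.95 and 4.37 TPM, while Cd5l was at 64.7 and 62.9 TPM. Much of the sum and of its difference came from C1qa. Clec4f, with 15 reads in each library, had a log2 ratio of -0.40 (95% interval, -1.53 to 0.74), or -0.65 under TMM scaling. Cd68 had a log2 ratio of -0.23 (95% interval, -0.87 to 0.42). The higher gene was C1qb, which encodes the third chain of the same complex as C1qa and C1qc, at 38.1 and 57.8 TPM, a log2 ratio of 0.60 that was 0.35 under TMM scaling. Sinusoidal endothelial markers summed to 190 and 159 TPM, with 4 lower, among them Clec4g, Gpr182 and Tie1, and 2 higher, among them Kdr, of 13 listed. Stellate cell markers summed to 224 and 269 TPM, with 4 lower, among them Reln and Colec10, and 2 higher, among them Col1a1, of 13 listed. Cholangiocyte markers summed to 67.6 and 113 TPM, with 1 lower and 2 higher, among them Spp1, of 5 listed. Of the T and NK cell markers 1 of 10 was listed, Cd3d, which was not past 1.5-fold, and of the B cell markers 2 of 6 were listed, 1 lower and 1 higher. Kdr and Spp1 were below 1.5-fold under median-ratio scaling, and Spp1 also under upper-quartile scaling. None of the listed markers was at 0 reads in either library.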

How the data were processed

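Poly(A) RNA of 1 normal and 1 diabetic mouse liver library was profiled by digital gene expression tags. The authors digested cDNA with DpnII, read the tags on the Solexa platform, removed adaptors, compared clean tags with RefSeq and deposited the tags of each gene as RPM, that is reads per 1000000 clean tags, under the name TPM, with 0.01 where none was counted. The submitters' processing notes name build mm9, and the deposited table holds no coordinates. The aligner and the treatment of tags that genes share are not given in the sources used here. The lowest mean of a gene in the table was 1.005 TPM, and 0 columns of values were left unused.

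Read numbers follow from the step between neighbouring values, and 8511 of 8513 normal and 8535 of 8537 diabetic values above the placeholder were whole within 0.005 TPM. The computation was tested on simulated data. Ratios are diabetic over normal, with exact Clopper-Pearson intervals from the reads, Poisson intervals for levels and normal-approximation intervals on the log scale for changes relative to a partner gene. A gene at 0 reads was set to 3 reads for its ratio. Groups came from the sample titles, and the fold threshold of 1.5 is that of the study. No p-value was computed, because each group had 1 library and the receptors were chosen with earlier results of these data known, as were the pathway and marker lists. The count test of the study was left out for the same reason. Named are all receptors, up to 4 genes per list with the largest ratio among those past 1.5-fold with a mean of at least 5 TPM, listed ligands, co-receptors, Lepr, Jak1, Stat3, Cyp7a1 and Cyp8b1. Osmr, Fgfr2, Insr, Ghr, Rela, Hgfac, Stam, Nr0b2, C1qb, Alb, Cd5l, Cd3d, Atf3, Myc, Clec4f and Cd68 were named after their values were seen. With 2 libraries a pattern is 1 ratio, so no gene was named for a pattern like that of a receptor.

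Alternatives were 4 scalings (sum of the listed genes, TMM with 30% of log ratios and 5% of abundances trimmed at each end, median ratio over genes of at least 10 TPM, and 75th percentile), pseudocounts of 0.1 and 1 TPM, a mean of at least 5 TPM and a fold of 2. Tags were read from GENCODE M21 transcripts on GRCm38 and promoters from RefSeq on GRCm38.p6, where 9 of the 10 receptors had a window. Versions were matplotlib 3.10.9, pandas 2.3.3 and scipy 1.17.1, with numpy 2.4.6 under Python 3.11.15.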

Additional observations from a re-analysis of the deposited data

How the results depend on the processing

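Egfr, Il1r1 and Lifr were at least 1.5-fold lower under the 4 scalings, both pseudocounts and the minimum mean of 5 TPM, and at a fold of 2 Lifr was no longer counted, which left 2 receptors. The number of receptors at least 1.5-fold higher, 2 with the deposited values, was 1 under each of the 4 scalings, where Met was under 1.5-fold. It was also 1 above the minimum mean, which leaves out Ntrk2, and at a fold of 2, which leaves out Met. The median log2 ratio of the receptors was -0.49 with a mean of at least 5 TPM. Of all listed genes, 1310 were at least 1.5-fold lower with the deposited values, 2044 after scaling by the listed sum, 2022 under TMM, 2189 under median-ratio and 2076 under upper-quartile scaling. The number was 658 above the minimum mean and 582 at a fold of 2. At least 1.5-fold higher were 2941 with the deposited values, 1874 under median-ratio scaling, 1773 above the minimum mean and 1589 at a fold of 2. The scalings lower each ratio, and the other 2 settings count fewer genes by construction. No receptor ratio past 1.5-fold changed its direction, and 14 of 48 receptor ratios under an alternative left their counting interval. Ntrk2 was among these, at a log2 ratio of 1.82 with a pseudocount of 1 TPM, against 3.11 with the floor of 3 reads. Of the counts for the other lists, 168 stayed within 1.5 times and 120 did not, most of them counts of a few genes. No paired analysis was possible because each group had 1 library. Differences between mice cannot be seen in these data, and for Ntrk2, Klb, Il1a and Il1b few reads limit the precision.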
